A study of Homo sapiens with 10 samples.

Results

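A set of 7 genes of simple epithelia was followed through 5 groups of human embryonic stem cells: the keratins KRT7, KRT8, KRT18 and KRT19, the surface proteins EPCAM and CLDN6, and the desmosome protein DSP. They are 7 of the 13808 gene rows in a table of 14785 rows, found there by their symbols. The genes were chosen from a list proposed with earlier results of these libraries in view, so their values are given as a description, and no test of one of them is used as support. The cells were H1, a long-established human embryonic stem cell line grown without feeder cells in a defined medium on Matrigel. All 10 RNA-seq libraries came from cells that received a virus carrying a short hairpin RNA (shRNA) and were then selected with puromycin, so the controls share the virus and the drug with the knockdowns. The control hairpin was directed at luciferase (shLUC), which human cells do not have. The other 4 hairpins were directed at SMARCA4, the ATPase of a chromatin remodelling complex (shSMARCA4), at MAFK, a small MAF transcription factor (shMAFK), at E2F6, a repressive E2F factor (shE2F6), and at KDM1A, a histone demethylase (shKDM1A). Each group had 2 libraries, which the design text calls biological duplicates. The labels give no hairpin sequence and name 1 cell line, so effects of a hairpin on its target and on other genes cannot be told apart here.

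Keratins are the intermediate filament proteins of epithelial cells. A filament is built from pairs of 1 type I and 1 type II keratin, and KRT8 (type II) with KRT18 (type I) is the pair that appears first in the embryo and is made by simple epithelia and by pluripotent stem cells. KRT7 (type II) and KRT19 (type I) are further simple-epithelial keratins, found with them in ducts and glands and in the trophoblast. The filaments are tied to the cell border at desmosomes by desmoplakin, the product of DSP. EPCAM is a cell adhesion glycoprotein of the epithelial surface that human pluripotent stem cells also carry. CLDN6 is a tight junction claudin of embryonic epithelia and a surface marker of human pluripotent stem cells.

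The 4 keratins are related in sequence. Over the aligned coding sequences the identity was 66.8% for the type II keratins KRT7 and KRT8, 57.7% for the type I keratins KRT18 and KRT19, and 48.1% to 50.7% across types. The type I pair, whose shSMARCA4 means were 47.9% (KRT19) and 89.4% (KRT18) of the shLUC means, is shown over 60 coding bases at the end of the central rod, the part by which keratins pair, 5′ to 3′ on the coding strand. The positions are on GRCh38 with GENCODE 29 transcripts. The stretch of KRT18 lies in exon 6 of 7 (chr12:52952266-52952325, plus strand) and that of KRT19 in exon 6 of 6 (chr17:41523791-41523850, minus strand). Capitals mark the 45 of 60 bases that are the same in both genes.
KRT18: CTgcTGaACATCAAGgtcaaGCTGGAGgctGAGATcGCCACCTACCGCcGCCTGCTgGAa
KRT19: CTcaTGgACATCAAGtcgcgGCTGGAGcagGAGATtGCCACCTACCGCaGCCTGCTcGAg
The bases that differ between the 2 genes are in lower case and are spread along the stretch.

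How uniquely a read can be placed differed between the genes. Of all words of 50 bases in the transcript with the longest coding sequence, read on both strands, 41.3% of those of KRT8 and 47.6% of those of KRT18 also occurred in another gene. For KRT8 these were 37 genes, of which 34 were pseudogenes, and for KRT18 they were 45 genes, of which 43 were pseudogenes. The share was 10.8% for KRT7 (10.4% with KRT7-AS on the other strand), 8.22% for CLDN6, 2.9% for EPCAM, 1.79% for KRT19 and 0% for DSP. No word of KRT7 or KRT19 occurred in another gene of the table. KRT7 thus shared no word with KRT8, and KRT19 none with KRT18. KRT8 (chromosome 12, 52897187 to 52949954, minus strand) and KRT18 (52948871 to 52952901, plus strand) also overlap each other by 1084 bases, and 21.5% of the words of KRT18 occurred in KRT8. KRT7 (chromosome 12, 52232520 to 52252186, plus strand) lies apart from both and overlaps KRT86, KRT87P and KRT7-AS, which were not analysed here. KRT19 is on chromosome 17 (41523617 to 41528308, minus strand), EPCAM on chromosome 2 (47345158 to 47387601, plus strand), DSP on chromosome 6 (7541575 to 7586717, plus strand) and CLDN6 on chromosome 16 (3014712 to 3020071, minus strand), where it overlaps TNFRSF12A on the other strand by 1627 bases. Whether the counting used strand, and how it treated reads with several matches, is not given in the sources used here. The values of KRT8 and KRT18 are therefore uncertain in this respect. So are those of KRT7 and CLDN6, which also share words with other genes and overlap others. The overlap of KRT7 with KRT86 is on the same strand and covers 2887 bases.

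The deposited values are whole numbers that were normalized by the authors, and they are called normalized values here. Every library had the same median of 594, and the totals lay between 22836548 and 22855295, so read depth is unknown and no interval from depth is given. The targeted genes were lower in the libraries of their own hairpins: SMARCA4 at 12.7% of the shLUC mean, KDM1A at 42.1%, E2F6 at 61.3% and MAFK at 59.6%. For MAFK the libraries overlapped, since shMAFK replicate 2 held 216 and the lowest library of another group 210. The SD between the replicates of a group on the log2 scale, taken over the whole table, was 0.264 to 0.335 in 4 groups and 0.53 in shKDM1A, so values that rest on 1 shKDM1A library are given with and without it. All 12 markers of pluripotent stem cells that were listed were in the table, and none was at 0 in a library. Their summed value was 188914 to 197192 in shLUC, 161726 to 184068 in shSMARCA4 and 180510 to 287156 in the other 3 knockdowns. The 287156 was shKDM1A replicate 1, where POU5F1 held 148866, the highest value in any library, against 35710 in replicate 2. Without shKDM1A replicate 1 the last range ended at 212424.

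In the control cells the 7 genes ranged from modest to very high. Divided by transcript length, the normalized values per kilobase in the 2 shLUC libraries were 6900 and 6680 for KRT8, 5950 and 5460 for CLDN6, 3850 and 3850 for KRT18, 2040 and 2370 for EPCAM and 1600 and 1760 for KRT19. DSP, with a transcript of 9.8 kilobases, stood at 366 and 443, and KRT7 at 124 and 169. On this scale KRT8, CLDN6 and KRT18 led, and KRT7 was the lowest in both control libraries. The division takes the values to grow with transcript length, which is not known for these scores. Undivided, the shLUC mean of DSP (3962) was above those of EPCAM (3374.5) and KRT19 (2336.5). Before division by length, KRT8 in shLUC was above 98.5% of all rows and KRT7 above 26.8%.

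KRT7 was much lower in both shSMARCA4 libraries than in any other library. Its normalized value was 218 and 296 in shLUC, 30 and 44 in shSMARCA4, 168 and 125 in shE2F6, 340 and 264 in shMAFK, and 360 and 172 in shKDM1A. Both shSMARCA4 libraries lay below all 8 others, which spanned 125 to 360. The mean in shSMARCA4 was 37 ± 9.9 (SD, n = 2) against 257 ± 55.2 (SD, n = 2) in shLUC, or 14.4% of it. The log2 difference, computed on log2(value + 1), was -2.77 with a standard error (SE) of 0.365, a 6.83-fold lower level. In bulk RNA, fewer cells that make KRT7 and less KRT7 RNA per cell cannot be told apart.

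The other knockdowns left KRT7 nearer to the control. In shE2F6 the mean was 146.5 ± 30.4 (SD, n = 2), or 57% of shLUC, and both libraries lay below both shLUC libraries. The log2 difference there was -0.81 (SE 0.365). In shMAFK the mean was 302 ± 53.7 and in shKDM1A 266 ± 133 (SD, n = 2 each), and both groups overlapped shLUC. The shKDM1A libraries differed from each other by more than their mean differed from shLUC: the log2 difference was -0.03 with both, -0.56 without replicate 1 and 0.50 without replicate 2. KRT7 had the largest replicate spread of the 7 genes, a pooled SD of 0.438 on the log2 scale.

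**Figure D1:**
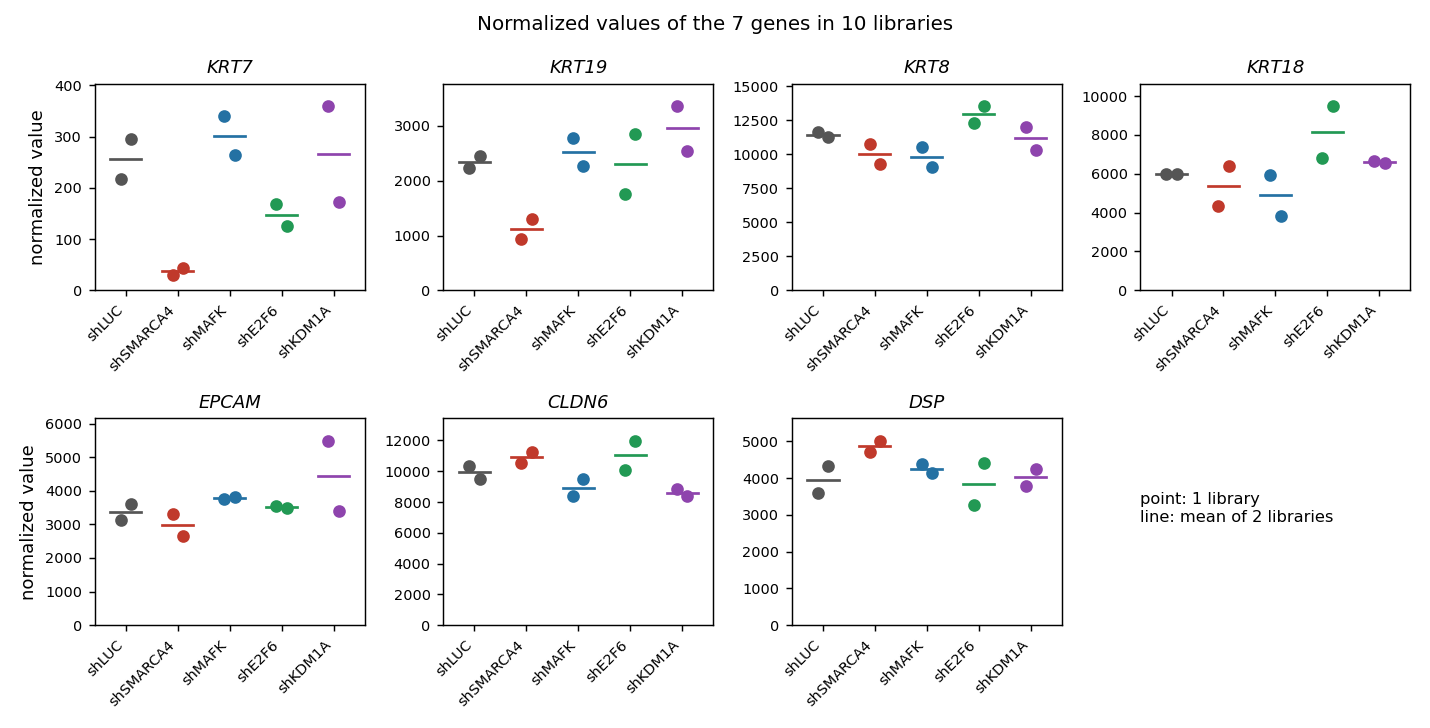
Normalized value (vertical axes, linear, from 0) of KRT7, KRT19, KRT8, KRT18, EPCAM, CLDN6 and DSP in the 5 groups; each point is 1 library and each line the mean of 2. The shSMARCA4 libraries stand below the other 8 in KRT7 (30 and 44 against 125 to 360) and in KRT19 (945 and 1294 against 1754 to 3366), and above them in DSP (4704 and 5026 against 3264 to 4427). The shE2F6 libraries stand above the other 8 in KRT8 (12340 and 13575) and KRT18 (6828 and 9502), and no group lies apart from all others in EPCAM and CLDN6.

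KRT19, a type I keratin that lacks the usual tail domain, was also lower in shSMARCA4, by less than KRT7. Its normalized value was 2223 and 2450 in shLUC, 945 and 1294 in shSMARCA4, 1754 and 2850 in shE2F6, 2782 and 2273 in shMAFK, and 3366 and 2544 in shKDM1A. Again both shSMARCA4 libraries lay below the 8 others, which held 1754 to 3366. The mean was 1119.5 ± 247 in shSMARCA4 and 2336.5 ± 161 in shLUC (SD, n = 2 each), or 47.9% of the control. That is a log2 difference of -1.08 (SE 0.265), a 2.11-fold lower level. In the other knockdowns the mean was 108% (shMAFK), 98.5% (shE2F6) and 126% (shKDM1A) of shLUC. Both shKDM1A libraries were above both shLUC libraries, with a log2 difference of 0.33 (SE 0.265). The shE2F6 libraries lay on either side of shLUC, so that the log2 difference of -0.06 became 0.29 without replicate 1 and -0.41 without replicate 2.

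KRT8 stayed within narrower bounds than KRT7 and KRT19, and its partner KRT18 did so less clearly. KRT8 held 11635 and 11277 in shLUC, 10757 and 9296 in shSMARCA4, 12340 and 13575 in shE2F6, 10534 and 9056 in shMAFK, and 11997 and 10349 in shKDM1A. The highest library was 1.5 times the lowest, against 12 times for KRT7. Group means ran from 85.5% of shLUC in shMAFK to 113% in shE2F6, and the log2 difference of shSMARCA4 from shLUC was -0.20 (SE 0.147). Values near this level come in coarse steps, since the normalization gave all libraries nearly the same set of values: 31 distinct values lay within the range of KRT8, with a median step of 0.895% and a largest step of 3.94%.

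KRT18 held 6012 in both shLUC libraries, 4340 and 6408 in shSMARCA4, 6828 and 9502 in shE2F6, 5923 and 3850 in shMAFK, and 6647 and 6578 in shKDM1A. The identical control values give an SD of 0, which is no measure of the real spread. The pooled SD of KRT18 over all groups was 0.305 on the log2 scale, close to the 0.31 of KRT19. The highest KRT18 library was 2.47 times the lowest, against 3.56 times for KRT19. Outside shSMARCA4, KRT18 spanned 3850 to 9502 and KRT19 1754 to 3366. Group means of KRT18 were 89.4% (shSMARCA4), 81.3% (shMAFK), 136% (shE2F6) and 110% (shKDM1A) of shLUC. In shE2F6 both libraries were above all 8 others for KRT8 and for KRT18, with log2 differences of 0.18 (SE 0.147) and 0.42 (SE 0.257). In shMAFK both genes were below both control libraries, with log2 differences of -0.23 and -0.33 and the same SE. The shMAFK value of KRT18 came mostly from 1 library: it was -0.64 without replicate 1 and -0.02 without replicate 2.

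Ratios of 2 keratins within 1 library do not depend on a scaling of the whole library. The normalization here went beyond a scaling, since it gave all libraries nearly the same set of values, so the ratios still depend on it. They are not divided by length and are compared only between libraries. The log2 ratio of KRT8 to KRT18 was 0.93 ± 0.032 in shLUC, 0.92 ± 0.546 in shSMARCA4, 0.68 ± 0.24 in shE2F6, 1.03 ± 0.285 in shMAFK and 0.75 ± 0.14 in shKDM1A (SD, n = 2 each), and over all libraries it spanned 0.52 to 1.31. The 2 shSMARCA4 libraries held the highest of these ratios and the one next to the lowest, so that group overlapped every other. Both shE2F6 and both shKDM1A libraries lay below both shLUC libraries. The other ratios were lower in both shSMARCA4 libraries than in the other 8, by unlike margins. The log2 ratio of KRT7 to KRT8, both type II, was -8.44 and -7.69 in shSMARCA4 and between -6.75 and -4.95 elsewhere. The log2 ratio of KRT19 to KRT18, both type I, was -2.20 and -2.31 in shSMARCA4 and between -1.96 and -0.76 elsewhere. Across types, KRT7 to KRT18 was -7.13 and -7.15 in shSMARCA4 and between -6.24 and -3.86 elsewhere. The margin was small for KRT19 to KRT8, at -3.51 and -2.84 in shSMARCA4 and between -2.81 and -1.83 elsewhere. Between the 2 keratins that were lower, the log2 ratio of KRT7 to KRT19 was -4.93 and -4.85 in shSMARCA4 and between -4.50 and -3.03 in the other 8 libraries.

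**Figure D2:**
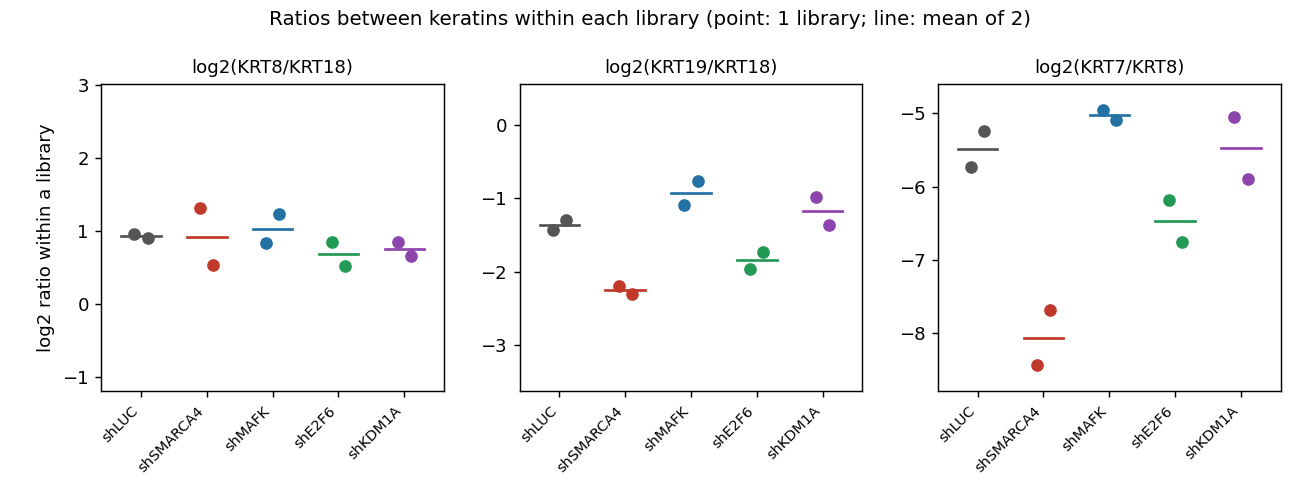
Log2 ratio of KRT8 to KRT18, KRT19 to KRT18 and KRT7 to KRT8 within each library (vertical axes, log2 scale, each axis covering the same number of log2 units), by group; points are libraries and lines the means of 2. KRT8 to KRT18 spans 0.52 to 1.31, with shSMARCA4 overlapping every other group, while the shSMARCA4 points are the lowest for KRT19 to KRT18 (-2.20 and -2.31) and for KRT7 to KRT8 (-8.44 and -7.69).

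EPCAM varied little outside 1 library. Its normalized value was 3126 and 3623 in shLUC, 3315 and 2650 in shSMARCA4, 3552 and 3476 in shE2F6, 3756 and 3821 in shMAFK, and 5500 and 3414 in shKDM1A. The value of 5500 in shKDM1A replicate 1 was the highest, and the other 9 libraries lay at or below 3821. The shKDM1A mean was 4457 ± 1480 (SD, n = 2), or 132% of shLUC, with a log2 difference of 0.37 (SE 0.226) that was 0.02 without replicate 1 and 0.71 without replicate 2, where limma called it. In shSMARCA4 the mean was 2982.5 ± 470 (SD, n = 2), or 88.4% of shLUC, and its libraries overlapped those of shLUC.

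CLDN6 was the steadiest of the 7 genes, with the highest library 1.43 times the lowest. It held 10349 and 9502 in shLUC, 10534 and 11277 in shSMARCA4, 10071 and 11997 in shE2F6, 8374 and 9502 in shMAFK, and 8852 and 8374 in shKDM1A. Both shSMARCA4 libraries were above both shLUC libraries, with a log2 difference of 0.14 (SE 0.143). Both shKDM1A libraries were below them, with a log2 difference of -0.20 (SE 0.143). The first of these is smaller than its SE, and the largest step between neighbouring values in this range was 3.15%.

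DSP was the 1 gene of the 7 whose shSMARCA4 libraries were above all the others. It held 3584 and 4340 in shLUC, 4704 and 5026 in shSMARCA4, 3264 and 4427 in shE2F6, 4390 and 4132 in shMAFK, and 3780 and 4261 in shKDM1A. The 8 other libraries spanned 3264 to 4427. The shSMARCA4 mean of 4865 ± 228 was 123% of the shLUC mean of 3962 ± 535 (SD, n = 2 each), a log2 difference of 0.30 (SE 0.183). The means of the other 3 knockdowns were 97.1% to 108% of shLUC.

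Read by comparison, 2 of the 7 genes were higher and 5 lower in shSMARCA4 than in shLUC, with a median log2 difference of -0.19, where the median over all rows was 0.007. A row was called when limma's adjusted p, over all rows, was under 0.05. In shSMARCA4 against shLUC 618 rows were called, 247 higher and 371 lower, which is 4.18% of all rows, and 1 of the 7 genes was among them, KRT7. That call was lost when shLUC replicate 2 was left out (log2 difference -2.55) and held in the other 18 of 19 alternatives. KRT19 was not called in the full fit and was called in 7 of the 19. For 5 of the 7 genes the shSMARCA4 and shLUC libraries did not overlap, a pattern that 51% of all rows showed. Because the genes were proposed with these results known, nothing is read from either count.

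The other 3 comparisons held few calls in all. With limma 2 rows (0.0135%) were called in shMAFK, 0 rows (0.0%) in shE2F6 and 4 rows (0.0271%) in shKDM1A, and 1296, 752 and 1695 rows had an unadjusted p under 0.05. Of the 7 genes 0 were called and 0 had an unadjusted p under 0.05 in each of these comparisons, while 4 were higher and 3 lower in each. Libraries did not overlap with shLUC for 3 genes in shMAFK (KRT8, KRT18 and EPCAM), 3 in shE2F6 (KRT7, KRT8 and KRT18) and 3 in shKDM1A (KRT18, KRT19 and CLDN6). The share of all rows without overlap was 49.1%, 40.7% and 38.8%, so 3 of 7 is near that background. The median log2 difference of the 7 genes was 0.11, 0.06 and 0.03. All 4 comparisons share the same 2 shLUC libraries.

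**Figure D3:**
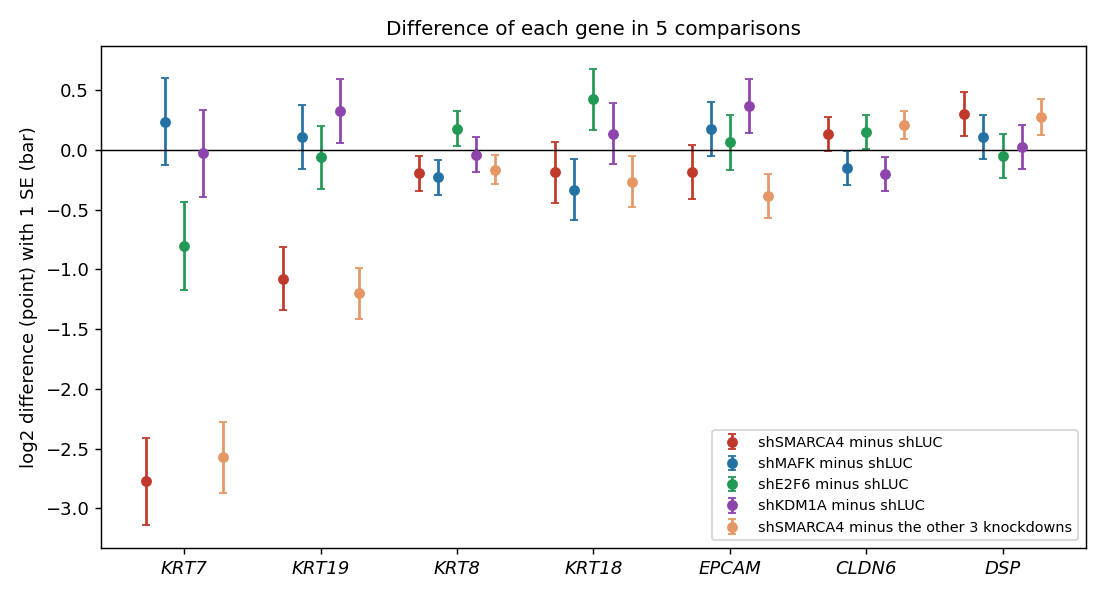
Log2 difference (vertical axis, log2 of value + 1) of each of the 7 genes in 5 comparisons; points are estimates from 1 limma fit of all 10 libraries and bars are 1 SE. KRT7 lies at -2.77 and KRT19 at -1.08 for shSMARCA4 minus shLUC, KRT7 lies at -0.81 for shE2F6 minus shLUC, and all other differences from shLUC are between -0.33 and 0.42.

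Set against the mean of the other 3 knockdowns, which leaves the shLUC libraries out of the reference, KRT7 and KRT19 were again the lowest in shSMARCA4. The log2 difference was -2.57 (SE 0.298, 5.95-fold lower) for KRT7, -1.20 (SE 0.217, 2.3-fold lower) for KRT19, -0.38 (SE 0.184) for EPCAM, -0.27 (SE 0.21) for KRT18 and -0.17 (SE 0.12) for KRT8. It was 0.27 (SE 0.15) for DSP and 0.21 (SE 0.117) for CLDN6. In this comparison 1286 rows (8.7%) were called, KRT7 and KRT19 among them. The KRT19 call was lost without shSMARCA4 replicate 1, where the difference was -0.97. EPCAM was called in 1 of the 18 alternatives, without shKDM1A replicate 2. The shSMARCA4 libraries are the same as in the comparison with shLUC.

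Ordering the 5 groups by mean gives 28 neighbouring pairs over the 7 genes, and few of these pairs were apart. In 8 pairs the gap exceeded the pooled replicate SD of the gene, in 9 the libraries did not overlap, and in 6 both held. For KRT7 the order from low to high was shSMARCA4, shE2F6, shKDM1A, shLUC and shMAFK, and the first 2 steps met both conditions (log2 gaps of 1.97 and 0.78). KRT19 ran from shSMARCA4 through shE2F6, shLUC and shMAFK to shKDM1A, and only its first step did (1.02). KRT8 met both only between shLUC and shE2F6 at the top (0.18), DSP only between shMAFK and shSMARCA4 at the top (0.19), and CLDN6 only between shLUC and shSMARCA4 (0.14). No neighbouring pair met both for KRT18 or EPCAM.

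The genes whose profile over the 10 libraries was most like that of KRT7 were not other keratins. Likeness was the root mean square difference between log2 profiles, each centred on its own mean, and it is a description over gene rows. The nearest were HAPLN3, a hyaluronan and proteoglycan link protein (0.297), CHRNA9, a nicotinic receptor subunit (0.312), and GAS6, a ligand of the TAM receptors (0.343). HAPLN3 held 1875 and 2191 in shLUC and 214 and 384 in shSMARCA4. CHRNA9 held 119 and 136 against 14 and 22, and GAS6 held 486 and 676 against 70 and 97. Of the other 6 genes KRT19 came nearest to KRT7, at rank 163 (0.721), and KRT8 stood at rank 4884. Ranked from KRT19, KRT7 was the farthest of the other 6, at rank 11039, and EPCAM the nearest, at rank 909. The profile of KRT19 was close to those of SUSD4, a complement regulator (0.177), and ICAM5, a neuronal adhesion molecule (0.19). SUSD4 held 174 and 172 in shLUC and 82 and 90 in shSMARCA4, and ICAM5 held 110 and 142 against 62 and 80.

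Beside them, 7 lists of related epithelial genes were examined: other keratins, other claudins, desmosome, tight junction and adherens junction genes, relatives and partners of EPCAM, and epithelial regulators. Of their 140 symbols 63 were in the table. Only 2 of 51 other keratins were there, KRT10 (424 and 464 in shLUC, 345 and 331 in shSMARCA4) and KRT222, so KRT8, KRT18, KRT19 and KRT7 made up most of the measured keratins. In shSMARCA4 against shLUC 1 of the 63 was called, or 1.59%, where 4.18% of all rows were, and 16 had an unadjusted p under 0.05, as did 2411 of the 14785 rows. The median log2 difference of the 63 was -0.06, with 26 higher and 37 lower.

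The called gene was CLDN4, a claudin of tight epithelia, which fell. It held 592 and 595 in shLUC, 258 and 275 in shSMARCA4, 585 and 630 in shE2F6, 592 and 444 in shMAFK, and 945 and 816 in shKDM1A. Both shSMARCA4 libraries were below all others. The log2 difference was -1.15 (SE 0.173, limma adjusted p = 0.00863). Leaving out any 1 of the shLUC or shSMARCA4 libraries kept the difference between -1.20 and -1.11 and ended the call, with limma adjusted p up to 0.0905. The E-cadherin gene CDH1 held 7440 and 7097 in shLUC and 8220 and 8374 in shSMARCA4, and was not called.

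In the other 3 knockdowns 0 of the 63 genes were called with limma, while 5 in shMAFK, 5 in shE2F6 and 11 in shKDM1A had an unadjusted p under 0.05. Their median log2 differences from shLUC were 0.04, -0.03 and -0.03. Without shKDM1A replicate 2 there were 17 calls among the 63 in shKDM1A, and 3235 among all rows.

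**Figure D4:**
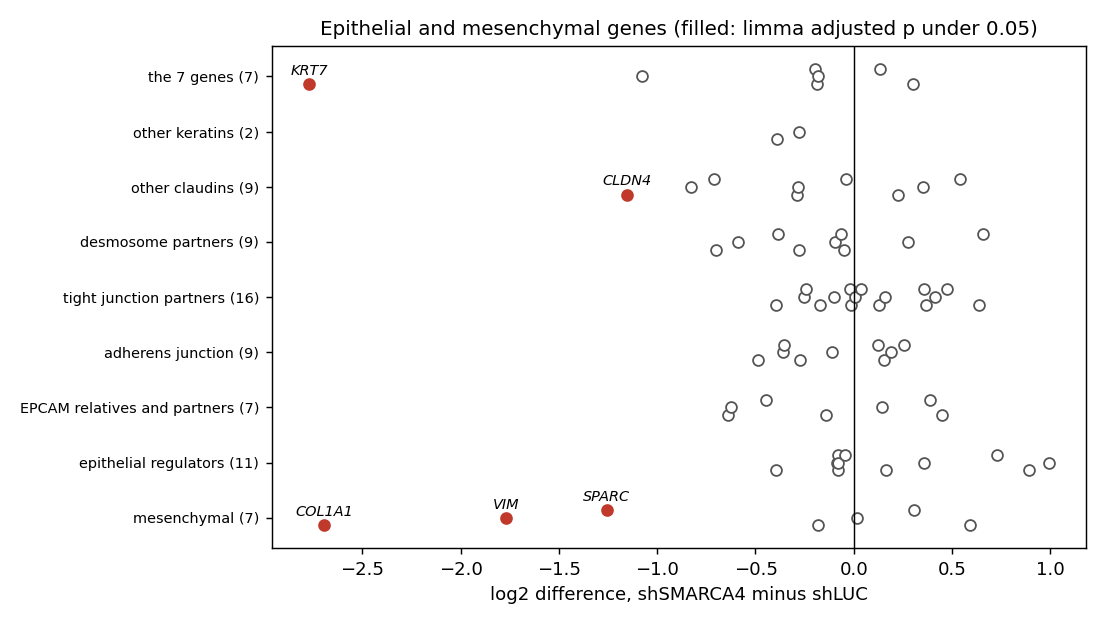
Log2 difference of shSMARCA4 minus shLUC (horizontal axis) for the 7 genes, for 7 lists of related epithelial genes and for a mesenchymal list; each circle is 1 gene, filled where limma's adjusted p over all rows was under 0.05, and the number of genes in the table stands in brackets. Filled circles are KRT7 (-2.77), CLDN4 (-1.15) and the mesenchymal genes COL1A1 (-2.70), VIM (-1.77) and SPARC (-1.26), while the junction lists lie on both sides of 0.

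Against the mean of the other 3 knockdowns 9 of the 63 genes were called in shSMARCA4, 3 higher and 6 lower, or 14.3% where 8.7% of all rows were. CLDN4 fell (log2 difference -1.28, SE 0.141, limma adjusted p = 0.00101), as did CLDN19, a second claudin (-1.14, SE 0.302, limma adjusted p = 0.049). Of the desmosome genes the plakophilin PKP2 fell (-0.76, limma adjusted p = 0.00915) and periplakin, PPL, fell (-0.75, limma adjusted p = 0.0224), while plakoglobin, JUP, rose (0.72, limma adjusted p = 0.0363). The tight junction gene OCLN, which encodes occludin, rose (0.63, limma adjusted p = 0.0449). FHL2, which binds the cleaved tail of EPCAM, fell (-0.90, limma adjusted p = 0.0179), as did CD44, a hyaluronan receptor (-0.88, limma adjusted p = 0.0378). RAB25, a small GTPase of epithelial cells, rose (0.96, limma adjusted p = 0.0355), by 1.33 without shSMARCA4 replicate 1 and by 0.60, no longer called, without replicate 2. The call of CLDN4 held in all 18 alternatives, that of PKP2 in 17, FHL2 in 16, PPL in 14, RAB25 in 11, JUP in 9, OCLN and CD44 in 8 and CLDN19 in 7. Against shLUC the log2 difference of JUP was 0.28 in shSMARCA4, and -0.395, -0.446 and -0.487 in shMAFK, shE2F6 and shKDM1A. For FHL2 it was -0.44, and 0.53, 0.353 and 0.473 in the same order. In shSMARCA4 against shLUC it was -0.83 for CLDN19, -0.64 for CD44, -0.59 for PKP2 and -0.70 for PPL. It was 0.64 for OCLN and 0.89 for RAB25, and of these genes only CLDN4 was called. Against the other 3 knockdowns DSP partners thus moved in both directions. Adherens junction genes held 0 calls in either comparison, with 1 and 2 unadjusted p under 0.05 with limma.

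VIM, the intermediate filament gene of mesenchymal cells, which pluripotent stem cells express too, fell alongside the lower values of KRT7 and KRT19. It held 3429 and 3110 in shLUC and 1046 and 876 in shSMARCA4, and 2473 to 3873 in the other 6 libraries. Its log2 difference was -1.77 (SE 0.163, limma adjusted p = 0.0011), and the call held in all 19 alternatives. COL1A1 fell by 2.70 on the log2 scale (limma adjusted p = 0.0177) and SPARC, another matrix gene, by 1.26 (limma adjusted p = 0.0161), each call being lost without 3 of the 4 libraries compared, taken 1 at a time. Against the other 3 knockdowns the same 3 genes were called, COL1A1 at -3.22 (limma adjusted p = 0.00173), VIM at -1.65 (limma adjusted p = 0.000297) and SPARC at -1.18 (limma adjusted p = 0.00493), the last lost without shSMARCA4 replicate 2. They were 3 of the 7 mesenchymal genes in the table, of 17 listed, and 0 were called higher. That is 42.9% of those measured, where 4.18% of all rows were called against shLUC and 8.7% against the other knockdowns. Called or not, 3 of the 7 were higher and 4 lower against shLUC, and 2 higher and 5 lower against the other knockdowns. FN1 held 2982 and 2322 in shLUC and 3651 and 4309 in shSMARCA4, and CDH2 held 960 and 1098 against 1543 and 1043, and neither was called. The summed value of the 7 was 11291 to 11342 in shSMARCA4, 16938 to 17307 in shLUC and 17946 to 32463 elsewhere. The 32463 was shKDM1A replicate 1, and without it the last range ended at 20455.

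Markers of other cell types were at other levels in the shSMARCA4 libraries, though few of them passed the test. The 2 endoderm markers in the table, FOXA2 and CER1, summed to 342 to 3146 in shSMARCA4, 23 to 48 in shLUC and 0 to 61 in the other groups, and the other 6 of the 8 endoderm markers were not analysed here. Neither was called by limma against shLUC, and 1 of the 2 had an unadjusted p under 0.05. MIXL1 and EOMES, the 2 of 7 mesoderm markers in the table, summed to 856 to 4239 in shSMARCA4, 34 to 48 in shLUC and 10 to 58 elsewhere. MIXL1 held 1809 and 132 in shSMARCA4 and 20 and 14 in shLUC, and it rose (log2 difference 4.79, limma adjusted p = 0.0365). That difference was 2.91 without shSMARCA4 replicate 1 and 6.67 without replicate 2, and the call was lost in 8 of 19 alternatives. EOMES was not called against shLUC. Outside shSMARCA4 these endoderm and mesoderm markers were low, with FOXA2 at most 4 and MIXL1 at most 34. No row of the table had a mean under 10, so such markers may be there only through their shSMARCA4 values. Their rise is therefore not read as support. Of 12 trophoblast and amnion markers, cells in which KRT7 is abundant, only GABRP was in the table, and it fell from 254 and 316 in shLUC to 95 and 70 in shSMARCA4 (log2 difference -1.78, SE 0.275, limma adjusted p = 0.00976), a call lost without either shLUC library or without shSMARCA4 replicate 2. Among 3 of 8 neural markers in the table, the sum was 2922 to 3061 in shSMARCA4, 3835 to 6093 in shLUC and 1594 to 6375 elsewhere. Of these markers 0 were called by limma against shLUC, with 1 unadjusted p under 0.05. TUBB3 made up most of the sum, at 5536 and 3264 in shLUC and 2200 and 2072 in shSMARCA4 (log2 difference -0.99). Lower values of TUBB3 were not particular to shSMARCA4: its log2 difference from shLUC was -1.045 in shMAFK, -1.36 in shKDM1A and 0.45 in shE2F6.

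Against the other 3 knockdowns 8.7% of all rows were called in shSMARCA4, some of these markers among them. Of the 12 pluripotency markers 3 were called, where 0 had been against shLUC (4 unadjusted p under 0.05, limma). NANOG rose (log2 difference 0.90, limma adjusted p = 0.049), while SOX2 fell (-0.50, limma adjusted p = 0.0209) and LIN28A fell (-0.49, limma adjusted p = 0.0136). Of 18 alternatives the NANOG call held in 8, the SOX2 call in 13 and the LIN28A call in 16. LIN28A held 30774 in both shSMARCA4 libraries and 41812 in both shLUC libraries, and its replicates were identical in all groups but shE2F6. Values come in coarse steps at this level, so such ties are no measure of the real spread of LIN28A. The endoderm marker CER1 rose (5.90, limma adjusted p = 0.0474, held in 8), as did the mesoderm markers EOMES (8.40, limma adjusted p = 0.0116, held in 16) and MIXL1 (4.81, limma adjusted p = 0.00927, held in 17, and 2.93 without shSMARCA4 replicate 1). The neural marker MAP2 rose (1.43, limma adjusted p = 0.0174, held in 16), and GABRP fell (-1.32, limma adjusted p = 0.0079, held in 17). Against shLUC the log2 difference of MAP2 was 0.79 and not called. The other neural markers, DCX (0.21) and TUBB3 (-0.34), lay on either side of 0 and were not called. CER1 and EOMES were listed at 0 in some libraries of the other knockdowns, so the size of their log2 differences depends on the pseudocount. As above, CER1, EOMES and MIXL1 may be in the table only through shSMARCA4, so their calls are not read as support. The part of these cell types in the values of KRT7, KRT19 and DSP was not tested.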

How the data were processed

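RNA from 10 libraries of H1 cells was measured by RNA-seq, 2 libraries in each of 5 groups taken from the sample titles. The authors deposited 1 table of whole-number scores per gene or transposable element subfamily; that they are normalized and not raw counts follows from the values, and the method is not given in the sources used here. Per the submitters' processing notes the build was hg38 and the tools included STAR and STARsolo, with no role or version. Depth per library is unknown. Values were analysed as log2(value + 1) with limma 3.58.1 in R 4.3.3 (a linear model for each row, then eBayes with its trend option; two-sided tests). All 10 libraries entered 1 model, which left 5 residual degrees of freedom. The filter, a mean of at least 10, removed 0 rows. Adjusted p-values are Benjamini-Hochberg over all 14785 rows, with a threshold of 0.05. Fold changes on this scale understate the change of low rows. Each knockdown was compared with shLUC, and shSMARCA4 with the mean of the other 3 knockdowns. The 7 genes, the 7 epithelial lists, the mesenchymal list and the marker lists (pluripotency, trophoblast and amnion, endoderm, mesoderm, neural) were chosen with earlier results of these data known. Named genes were the 7 genes, the 4 targets, up to 3 called genes with the largest change per list and comparison, and, for genes whose group means spanned at least 1 on the log2 scale, the 3 gene rows most alike in profile, of which 1 is not reported here. KRT10, CDH1, FN1 and CDH2 were named after their values were seen. The fit was tested on simulated data. Positions and sequences are from GENCODE 29 on GRCh38, and words of 50 bases were compared with all its transcripts. Tables were made with Python 3.11.15, pandas 2.3.3 and numpy 2.4.6, and plots with matplotlib 3.10.9. Alternatives covered the pseudocount (16), the filter (a mean of at least 100, or none), quantile normalization, no trend, only the groups compared, group weights, the replicate block, leaving out each library and leaving out both shKDM1A libraries.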

Additional observations from a re-analysis of the deposited data

How the results depend on the processing

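The direction of the called differences named here did not reverse under any alternative. Over the 7 genes and 5 comparisons 639 alternative values lay within the replicate SD of the reported one and 12 did not. All 12 came from leaving out a shMAFK, shE2F6 or shKDM1A library. Many alternatives, such as the filter, the weights or a library of a group not compared, leave the log2 difference unchanged by construction. The 639 are therefore no measure of robustness. Of the alternatives for the other named genes 365 kept the call and 109 lost it. With 2 libraries a group, 1 library often decided a call, and depth limits cannot be given. Rows called in shSMARCA4 against shLUC (618) became 1306 when each group had its own weight, 1162 without both shKDM1A libraries, and 89 to 1159 with 1 library left out. Epithelial genes called there (1) became 5, 5 and, with only the groups compared, 3, and 0 to 5 with 1 library left out. Rows called in shMAFK (2) became 5 with quantile normalization, 5 with no trend, 1 with the replicate block, 487 with group weights, 34 without both shKDM1A libraries, 32 with only the groups compared and 0 to 37 with 1 library left out, and epithelial genes (0) became 1 under the same group weights, without both shKDM1A libraries and with only the groups compared, and 0 to 1. Rows called in shE2F6 (0) became 21, 5 and 1 under those 3 settings and 0 to 5 with 1 library left out. Rows called in shKDM1A (4) became 9 with no trend, 2 with group weights, 1 with only the groups compared and 1 to 3235 with 1 library left out, and epithelial genes (0) became 0 to 17. Against the other 3 knockdowns 1286 rows became 436 to 3108 with 1 library left out, and 9 epithelial genes became 4 with only the groups compared and 2 to 20. The cause was not tested. Leaving out both shKDM1A libraries was not run for comparisons that use them. Where 1 library was left in a group, it was assumed to vary like the other groups. The replicate numbers were not treated as pairs in the main fit. In 2 of 10 pairs of groups same-numbered libraries deviated together with a correlation above 0.1 (range -0.05 to 0.337). These were shE2F6 with shSMARCA4 (0.337) and shLUC with shMAFK (0.106). The replicate block changed the count in shMAFK from 2 to 1 and no other count by over 1.5 times.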
